A study of Mus musculus with 20 samples.

Results

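The genes described here are the liver X receptors, the sterol transporters they control, and the enzymes and receptors that esterify or take up cholesterol. They are Nr1h3, Nr1h2, Abca1, Abcg1, Abcg5, Abcg8, Soat1, Soat2, Scarb1 and Mylip, 10 of the 25034 genes that had a named probe. They were chosen by gene name, with earlier results of these data known. Every probe carrying one of these names was taken, which gave 20 of the 56605 probes. Liver X receptors are nuclear receptors that bind oxysterols, the oxidised forms of cholesterol that build up when a cell holds too much sterol, and they switch on genes that move cholesterol out of the cell. In the intestine that programme sends cholesterol to high-density lipoprotein on the basolateral side and back to the gut lumen on the apical side. The sterol-sensing factor SREBP2 works in the other direction, raising synthesis and uptake when cell sterol is low.

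Expression was measured in intestinal tissue of 20 C57BL6/j mice, which per the study's methods were young adults, with 1 single-colour array per mouse. The 6 Cre control mice carried VillinCreER/0, a tamoxifen-inducible recombinase driven by the Villin promoter. The 6 BRAFV600E mice were VillinCreER/0/BrafV600E-LSL/+, and both groups received tamoxifen a few days before harvest. The 4 MEKi mice received the MEK inhibitor PD184352 after tamoxifen and the 4 Vehicle mice the carrier. The genotype of these 8 mice is not in the labels, and per the study's figure legends they carried the mutant allele. The Villin promoter acts in gut epithelium, whereas the RNA came from whole tissue, so fewer cells of a type and less RNA per cell cannot be told apart. Both comparisons ask how the oncogene, or MEK signalling downstream of it, goes along with the RNA levels of these genes. Sterol efflux itself was not measured.

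The level of a gene is the log2 of its processed spot intensity minus the 75th percentile of that array, and a difference of levels is a log2 fold change. The 75th percentile ran from 524.7 to 1518.1 intensity units, and 60.8% to 76.8% of spots were well above background. The slope of the spike-in control spots was recorded as 0 on BRAFV600E 3 to 6. It was 1.052 and 1.055 on BRAFV600E 1 and 2 and ran from 0.759 to 1.068 on the Cre controls. On the MEKi and Vehicle arrays it ran from 1.023 to 1.082. The cause of this difference was not tested. The mean level of 9 enterocyte genes ran from 7.10 to 7.66 on the Cre control arrays, from 5.37 to 7.28 with BRAFV600E, from 7.06 to 7.57 with MEKi and from 6.60 to 7.49 with Vehicle. The Cre control arrays and BRAFV600E 1 and 2 shared a slide and BRAFV600E 3 to 6 filled another. With the slide as a block, the BRAFV600E change therefore comes from BRAFV600E 1 and 2 alone, as within the shared slide. MEKi and Vehicle held separate rows of the last slide, where row and treatment cannot be told apart. Arrays BRAFV600E 2 and Vehicle 2 stood apart by genes of the duodenum. Pdx1, a duodenal and pancreatic transcription factor, was at 3.10 and 3.72 on them, and Cybrd1, the duodenal ferric reductase, at 6.48 and 6.29. BRAFV600E 1 and 5 had Pdx1 levels of 0.78 and 1.06, and the remaining arrays ran from -4.51 to -1.18. Vehicle 2 also carried pancreatic RNA, with the carboxypeptidase gene Cpa1 at 8.35 and no other array above -2.07. Values that moved with these arrays are also given without them.

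Abca1 was the only one of the 10 genes whose change passed the test in BRAFV600E intestine, where it fell to 0.178 of the Cre control level. With limma and Benjamini-Hochberg adjustment over all 19037 genes tested, 12.5% of genes were called at an adjusted p under 0.05, 6.19% higher and 6.27% lower. Of the 10 genes, all of which were tested, 1 was called lower and 0 were called higher. Their median log2 fold change was -0.25 against -0.02 for all genes, 8 values being negative and 2 positive. Without scaling between arrays the median of all genes was 0.79, and 7 of the 8 negative values, all but that of Abca1, turned positive. Without BRAFV600E 1, 2 and 5, the arrays of raised Pdx1, the median was -0.07, with 5 negative and 5 positive values. With the slide as a block, which leaves the change to BRAFV600E 1 and 2, the median was -0.64. At an unadjusted p under 0.05 there were 3 of the 10, which were Abca1, Nr1h3 and Scarb1, against 5738 of all 19037 genes, a similar share. The 2 groups did not overlap for Abca1 alone, against 7.36% of all genes.

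Under the MEK inhibitor 0 of the 10 genes were called, and 1 (Abca1) had an unadjusted p under 0.05. Among all 19230 genes tested there, 1.98% were called, 1.09% higher and 0.884% lower, and 3154 had an unadjusted p under 0.05. The median of the 10 genes was 0.25 against 0.04 for all genes, with 9 values positive and that of Scarb1 negative. Without Vehicle 2 the median was 0.15, and Soat2 in place of Scarb1 was the negative value. For 0 of the 10 genes were the MEKi and Vehicle arrays fully separate, against 12.2% of all genes. The comparisons share no arrays, since each has its own controls.

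**Figure D1:**
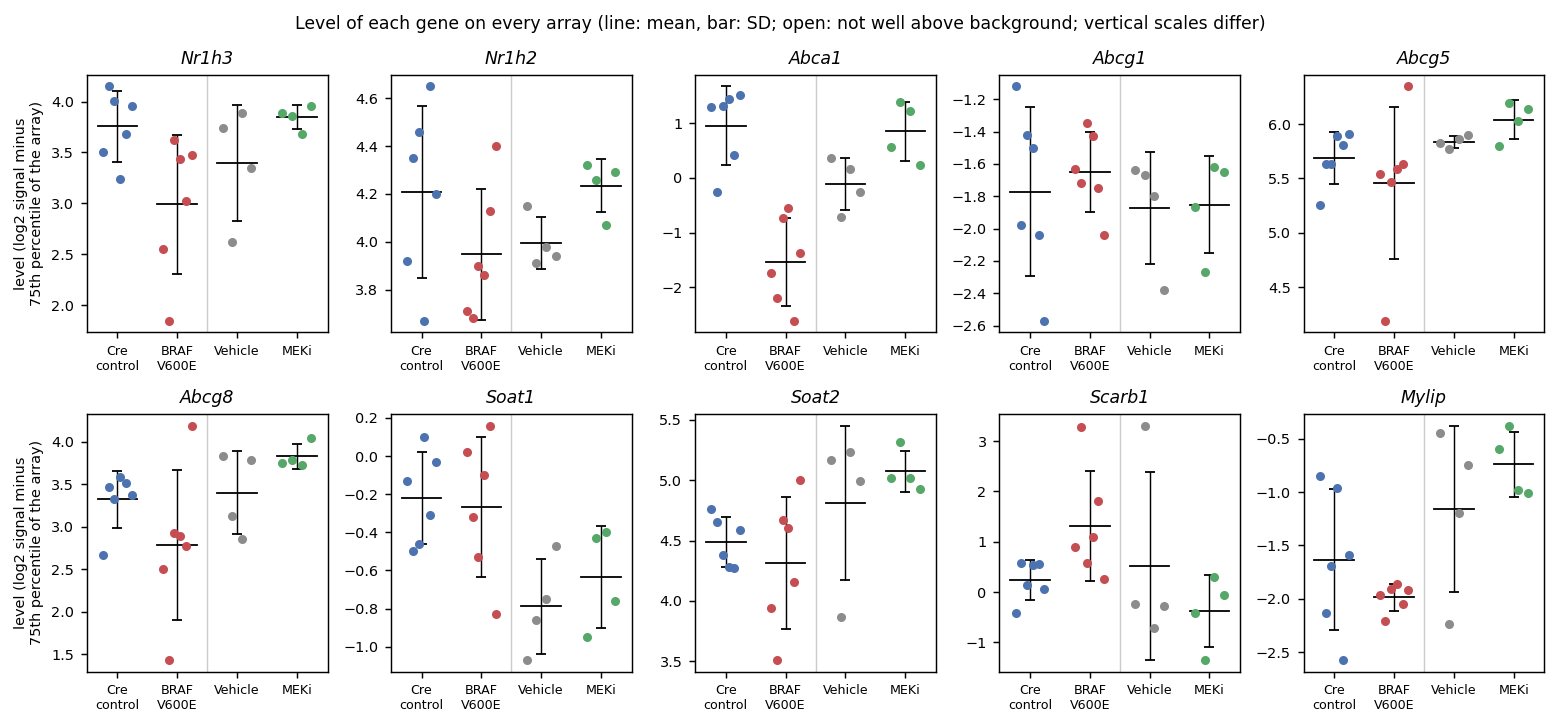
Level of each of the 10 genes on all 20 arrays (vertical axes: log2 signal minus the array's 75th percentile, scaled per gene; horizontal: group), with 1 point per array, the mean as a line and the SD as a bar. Abca1 is the gene whose 6 BRAFV600E points all lie below the 6 Cre control points, and for Scarb1 a single point in each of the BRAFV600E and Vehicle groups reaches 3.28 and 3.31.

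**Figure D2:**
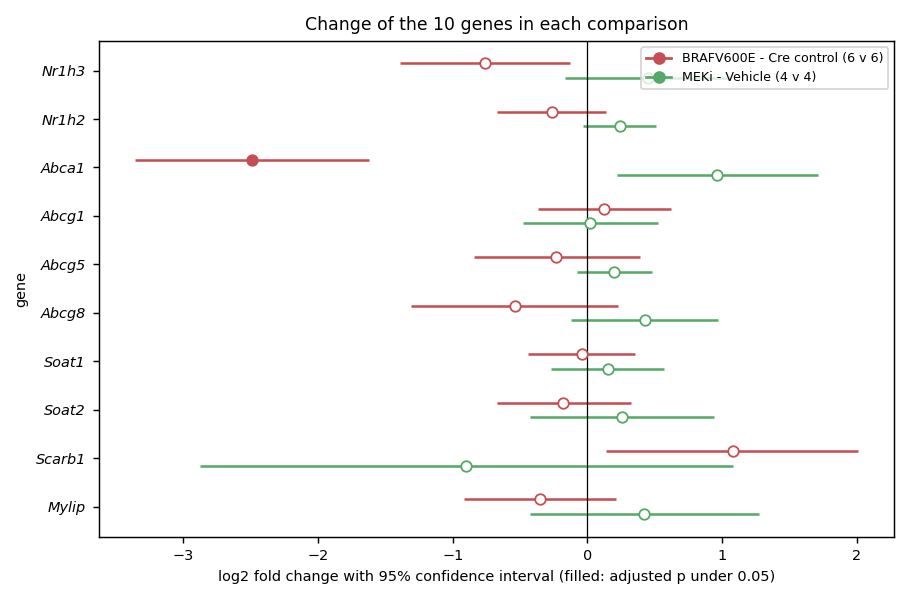
Log2 fold change (horizontal axis) of each gene in BRAFV600E against Cre control and in MEKi against Vehicle, with the 95% confidence interval of the limma fit as a line and a filled point where the adjusted p was under 0.05. Only the BRAFV600E value of Abca1, -2.49, is filled.

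Nr1h3 encodes LXR alpha, the receptor most abundant in liver, intestine and macrophages. Its level on the 6 Cre control arrays ran from 3.24 to 4.15 with a median of 3.82, and on the 6 BRAFV600E arrays from 1.85 to 3.62 with a median of 3.23. The groups overlapped, and 3 BRAFV600E arrays lay below every Cre control. The log2 fold change of -0.76 (SE 0.29, 95% interval -1.39 to -0.13) had an unadjusted p of 0.0216 and did not pass the limma test after adjustment (adjusted p = 0.100). These 3 lowest arrays, BRAFV600E 1, 2 and 5 at 2.55, 1.85 and 3.02, were the ones with Pdx1 above every Cre control. Without them the log2 fold change was -0.24 (SE 0.21, limma adjusted p = 0.514), a setting chosen after the data were seen. With the slide as a block it was -1.56 (limma adjusted p = 0.00642), and within the slide shared by both groups, whose BRAFV600E arrays were 1 and 2, also -1.56 (limma adjusted p = 0.0282). Both settings give the same estimate, that of BRAFV600E 1 and 2, of raised Pdx1, against the Cre controls. The part of gut position in the Nr1h3 values was not tested.

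In the inhibitor experiment Nr1h3 stood at 3.89, 3.86, 3.68 and 3.96 on the MEKi arrays and at 3.74, 2.62, 3.89 and 3.35 on the Vehicle arrays. The lowest value was again that of Vehicle 2, and the groups overlapped. MEKi minus Vehicle was 0.45 (SE 0.27, limma adjusted p = 0.476), and without Vehicle 2 it was 0.18 (SE 0.17, limma adjusted p = 0.646). The gene's other probe gave 0.14 (SE 0.61) in BRAFV600E with an SD of 1.50 among the Cre controls, so the probes disagreed in sign there. On this other probe Cre control 6 stood at -1.08, whereas the remaining Cre controls ran from 2.03 to 2.92. The brighter probe read 3.96 on Cre control 6. The sign of the other probe without that array was not tested. Under the inhibitor the other probe gave 0.38 (SE 0.25), of the same sign as the brighter one.

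Nr1h2 encodes LXR beta, which is made in nearly all tissues. It ran from 3.67 to 4.65 in Cre control and from 3.68 to 4.40 in BRAFV600E, so the groups overlapped almost fully. Its log2 fold change was -0.26 (95% interval -0.67 to 0.14, limma adjusted p = 0.374). Under MEKi the values were 4.32, 4.26, 4.07 and 4.29 against 4.15, 3.91, 3.98 and 3.94 with Vehicle. There 3 of 4 MEKi arrays lay above every Vehicle array, with a log2 fold change of 0.24 (95% interval -0.03 to 0.51, limma adjusted p = 0.357). A further Nr1h2 probe differed by -0.06 and 0.21 in the 2 comparisons, and the remaining one was not well above background on any array.

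Abca1 encodes the transporter that loads cellular cholesterol and phospholipid onto apolipoprotein A-I, the first step in making high-density lipoprotein, and it is among the best known LXR targets. The 250 bases before its start are shown because the proximal promoter of this gene is known from earlier work to be LXR-responsive through a direct repeat of AGGTCA spaced by 4 bases, called DR4. The sequence is that of RefSeq, on GRCm38.p6 at chr4:53159896-53160145, minus strand, printed 5′ to 3′. Capitals mark, in order, GGGCGG (GC box), CACGTG (E-box), GGGCGG again, a DR4 match with 3 of its 12 fixed bases changed, and TATAAA.

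Abca1: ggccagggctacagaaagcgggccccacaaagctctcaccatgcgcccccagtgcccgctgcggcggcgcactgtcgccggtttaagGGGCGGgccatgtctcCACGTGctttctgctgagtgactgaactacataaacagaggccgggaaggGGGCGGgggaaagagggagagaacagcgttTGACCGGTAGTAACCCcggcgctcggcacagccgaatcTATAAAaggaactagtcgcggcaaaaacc

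The DR4 match lies on the opposite strand, from base -67 to base -52 counted from the start, and does not overlap the other marked motifs. Both strands were searched with up to 3 changed bases. Such a match was present in 18.5% of all 32851 promoters of this length in the RefSeq table, CACGTG in 6.02%, GGGCGG in 32.7% and TATAAA in 12.4%. The table held 9 promoters of 7 of the 10 genes, those of Nr1h3, Nr1h2, Abca1, Abcg5, Abcg8, Soat1 and Mylip. Among them Abca1 alone had a DR4 match or the E-box within this window. A match of letters is a description of the sequence and does not show that a factor binds it.

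Abca1 stood at 1.30, -0.26, 1.32, 1.45, 0.42 and 1.52 on the 6 Cre control arrays. On the 6 BRAFV600E arrays it stood at -1.74, -2.19, -0.74, -0.55, -2.61 and -1.38. Every BRAFV600E array was lower than every Cre control array, with means of -1.53 ± 0.81 (SD, n = 6) and 0.96 ± 0.72 (SD, n = 6). The fall was 2.49 on the log2 scale (log2 fold change -2.49, SE 0.40, 95% interval -3.36 to -1.62, limma adjusted p = 0.00265).

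The lowest 3 of these arrays, BRAFV600E 1, 2 and 5, were the arrays with raised Pdx1. Without them the log2 fold change of Abca1 was -1.85 (SE 0.41, limma adjusted p = 0.0380, 3 against 6 arrays). With the slide as a block it was -2.92 (limma adjusted p = 0.0104), and within the shared slide also -2.92 (limma adjusted p = 0.0168, 2 against 6 arrays). These are the same estimate and not separate checks, since both compare only BRAFV600E 1 and 2, of raised Pdx1, with the Cre controls. The part of gut position in the Abca1 values was not tested.

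A further Abca1 probe, whose mm9 coordinates chr4:53048405-53049145 span 741 bases and so more than the 60 bases of the brighter probe at chr4:53043944-53044003, gave the same direction. It was at -3.24, -3.90, -1.75, -3.47, -2.83 and -2.10 in Cre control and at -7.56, -6.87, -5.79, -5.09, -6.17 and -6.45 in BRAFV600E. Every BRAFV600E reading lay below every Cre control reading, with a log2 fold change of -3.44 (SE 0.44). Only 1 of 6 BRAFV600E arrays was well above background against 6 of 6 Cre controls. The probe was thus kept for testing through the group where it was high. Its separation is therefore not a second test, and the dim values have little precision.

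With the inhibitor Abca1 stood at 0.56, 1.39, 1.22 and 0.24, and with Vehicle at 0.36, -0.72, 0.17 and -0.26. Here 3 of 4 MEKi arrays lay above every Vehicle array, and the groups overlapped through the fourth. The log2 fold change of 0.96 (SE 0.33, 95% interval 0.22 to 1.71) had an unadjusted p of 0.0177 and did not pass adjustment in limma (adjusted p = 0.192). The other probe gave 1.47 (SE 0.41, limma adjusted p = 0.172) and was well above background on 4 of 4 MEKi arrays against 1 of 4 Vehicle arrays. Here too it was kept for testing through the group where it was high. Without Vehicle 2 the value of the brighter probe was 0.76 (limma adjusted p = 0.279). Y-linked genes were high on all 4 MEKi arrays and on 2 of 4 Vehicle arrays, and with their level as a covariate the value was 0.56 (limma adjusted p = 0.596). The part of sex in this value was not tested further.

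**Figure D3:**
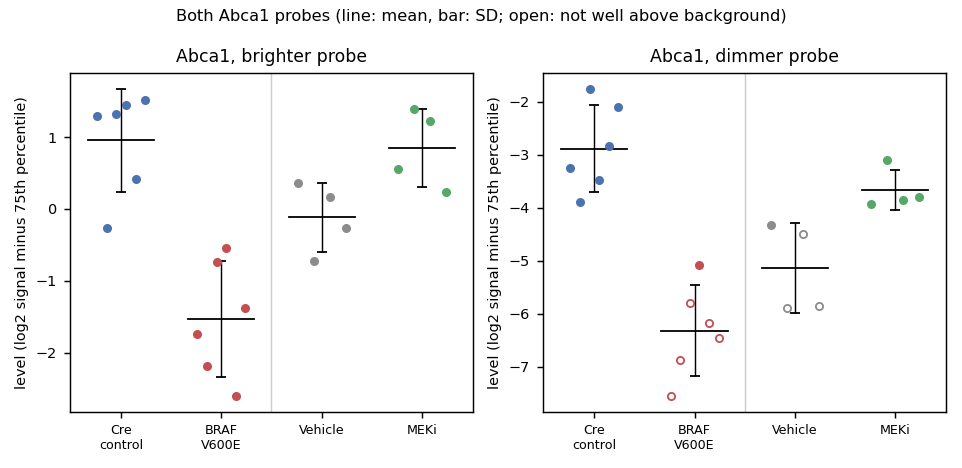
Level of each Abca1 probe (vertical axes: log2 signal minus the array's 75th percentile) in the 4 groups, 1 point per array, with mean and SD and open points where the spot was not well above background. On both probes all 6 BRAFV600E arrays lie below all 6 Cre controls, and on the dimmer probe 5 of the 6 are open.

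Macrophages also make Abca1. Of 10 macrophage genes 2 were called lower in BRAFV600E, Csf1r (the colony-stimulating factor receptor, -0.69) and Cx3cr1 (the fractalkine receptor, -0.55), and 0 higher. All 10 values were negative, with a median of -0.38 on the log2 scale. Their mean level ran from 0.17 to 0.79 on the BRAFV600E arrays and from 0.29 to 1.31 on the Cre controls. Under MEKi 0 of the 10 were called, with a median of -0.02. Of 9 enterocyte genes 1 was called higher in BRAFV600E (Alpi, intestinal alkaline phosphatase, 1.84) and 0 lower, with a median of -0.42 and 8 of 9 values negative. Their mean level was 5.37 to 7.28 on the BRAFV600E arrays against 7.10 to 7.66 on the Cre controls. Among these genes Lct and Anpep were at -2.23 and 3.65 on BRAFV600E 2, the array with the highest duodenal levels of its group. On the other BRAFV600E arrays they ran from 5.49 to 7.12 and from 6.74 to 8.39. Vil1 (villin) differed by -0.05. The part of gut position in the range of the enterocyte mean was not tested. The part of either cell type in the Abca1 result was not tested.

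Abcg1, which passes cholesterol to particles that already carry lipid, is likewise an LXR target. It ran from -2.57 to -1.12 in Cre control, with a median of -1.74, and from -2.04 to -1.35 in BRAFV600E, with a median of -1.67. All 6 BRAFV600E values lay inside the Cre control range. Its log2 fold change was 0.12 (95% interval -0.37 to 0.62, limma adjusted p = 0.767), and under MEKi it was 0.02 (95% interval -0.48 to 0.52, limma adjusted p = 0.975).

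Abcg5 and Abcg8 encode the subunits of the apical transporter that returns cholesterol and plant sterols to the gut lumen. The genes lie head to head, and the 109 bases between their starts are shown because both are read from it. The sequence is that of RefSeq on GRCm38.p6, chr17:84683012-84683120, plus strand, which is the strand of Abcg8, with TATAAA on the Abcg5 strand in capitals.

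Abcg5-Abcg8: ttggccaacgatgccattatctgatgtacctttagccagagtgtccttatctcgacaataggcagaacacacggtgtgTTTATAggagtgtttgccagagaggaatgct

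Abcg5 ran from 5.26 to 5.91 in Cre control and from 4.19 to 6.35 in BRAFV600E. Both ends of the wider range were single arrays, BRAFV600E 2 at 4.19 and BRAFV600E 6 at 6.35, while the other 4 lay inside the Cre control range. This gave a log2 fold change of -0.23 (95% interval -0.84 to 0.39, limma adjusted p = 0.634). Abcg8 had its extremes on the same arrays, 1.43 on BRAFV600E 2 and 4.19 on BRAFV600E 6, against 2.66 to 3.59 in Cre control. Its log2 fold change was -0.54 (95% interval -1.31 to 0.23, limma adjusted p = 0.335). Without the 3 arrays of raised Pdx1 the values were 0.11 for Abcg5 and 0.02 for Abcg8. With the slide as a block they were -0.82 (limma adjusted p = 0.151) and -1.36 (limma adjusted p = 0.0586), and within the shared slide also -0.82 and -1.36 (limma adjusted p = 0.210 and 0.0644). Both settings rest on BRAFV600E 1 and 2 alone.

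In the inhibitor experiment Abcg5 stood at 5.80, 6.20, 6.03 and 6.14 with MEKi and at 5.83, 5.77, 5.86 and 5.90 with Vehicle. The highest 3 values were MEKi arrays, and the log2 fold change was 0.20 (95% interval -0.08 to 0.48, limma adjusted p = 0.490). Abcg8 stood at 3.75, 3.79, 3.73 and 4.04 against 3.83, 3.12, 2.86 and 3.79. The groups overlapped and the log2 fold change was 0.43 (95% interval -0.12 to 0.97, limma adjusted p = 0.435). Each gene had 1 probe.

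Soat1 and Soat2 encode the acyltransferases that turn cholesterol into cholesteryl ester, Soat1 in most cells and Soat2 in enterocytes and hepatocytes. Soat1 ran from -0.50 to 0.10 in Cre control and from -0.83 to 0.16 in BRAFV600E, with a log2 fold change of -0.04 (95% interval -0.44 to 0.35, limma adjusted p = 0.906). Under MEKi it changed by 0.15 (95% interval -0.27 to 0.57, limma adjusted p = 0.760). Of its 5 probes 1 was too dim to be tested. The other 4 lay between -0.57 and 0.17 in BRAFV600E and between -0.03 and 0.42 under MEKi, and 0 of them were called.

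Soat2 ran from 4.27 to 4.76 in Cre control and from 3.51 to 5.00 in BRAFV600E. The lowest 3 values of the 12 arrays were those of BRAFV600E 2, 1 and 5, at 3.51, 3.94 and 4.16. BRAFV600E minus Cre control was -0.18 (95% interval -0.67 to 0.32, limma adjusted p = 0.651), and without these 3 arrays 0.27. With the slide as a block and within the shared slide it was -0.76 (limma adjusted p = 0.0632 and 0.0901), in both from BRAFV600E 1 and 2 alone. With MEKi the values were 5.02, 5.32, 5.02 and 4.93 and with Vehicle 5.17, 3.87, 5.23 and 4.99. Vehicle 2 was again the low array, and the log2 fold change was 0.26 (95% interval -0.43 to 0.94, limma adjusted p = 0.744). Without Vehicle 2 it was -0.06 (SE 0.15, limma adjusted p = 0.882), of the opposite sign. A further Soat2 probe gave 0.14 and 0.17 in the 2 comparisons.

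Scarb1 encodes SR-BI, the receptor that takes up cholesteryl ester from high-density lipoprotein and is found in the brush border of the proximal gut. It ran from -0.42 to 0.57 on the 6 Cre control arrays, with a median of 0.34, and from 0.26 to 3.28 on the 6 BRAFV600E arrays, with a median of 0.99. There 5 of 6 BRAFV600E arrays lay above every Cre control, and the groups overlapped through BRAFV600E 6. The log2 fold change of 1.08 (SE 0.43, 95% interval 0.14 to 2.01) had an unadjusted p of 0.0271 and did not pass adjustment in limma (adjusted p = 0.115). The highest array was BRAFV600E 2, where Pdx1 was also highest of the 12. Without it the log2 fold change was 0.69 (SE 0.28, limma adjusted p = 0.139), and without the 3 arrays of raised Pdx1 it was 0.40 (SE 0.27, limma adjusted p = 0.382). With the slide as a block it was 1.84 (limma adjusted p = 0.0629), and within the shared slide 1.84 (limma adjusted p = 0.113). Both settings rest on BRAFV600E 1 and 2 alone.

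The same split appeared in the inhibitor experiment. Scarb1 stood at -0.42, -1.35, 0.30 and -0.05 with MEKi and at -0.23, 3.31, -0.71 and -0.28 with Vehicle. Vehicle 2 was far above the other 7 arrays, and it was also the array with Pdx1 at 3.72. MEKi minus Vehicle was -0.90 (95% interval -2.88 to 1.08, limma adjusted p = 0.681), and without Vehicle 2 it was 0.03 (SE 0.38, limma adjusted p = 0.981). A dimmer Scarb1 probe differed by -0.01 in BRAFV600E and by -0.27 under MEKi. The part of gut position in the Scarb1 values was not tested.

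**Figure D4:**
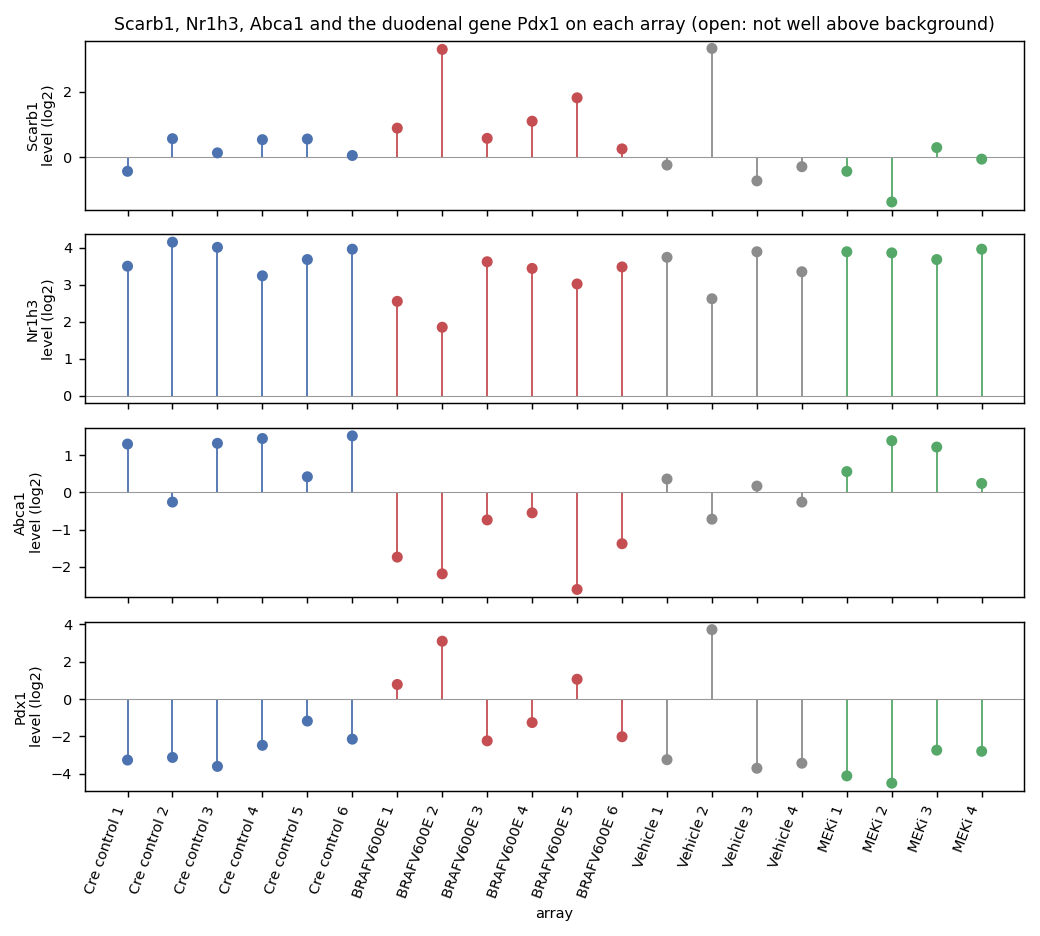
Levels of Scarb1, Nr1h3, Abca1 and Pdx1 (vertical axes: log2 signal minus the array's 75th percentile) on each of the 20 arrays, coloured by group. On BRAFV600E 2 and Vehicle 2, Pdx1 and Scarb1 are at their highest and Nr1h3 and Abca1 are low (Nr1h3 at 1.85 and 2.62, Abca1 at -2.19 and -0.72). Abca1 is lowest of the BRAFV600E group on arrays 1, 2 and 5, those of raised Pdx1, and all 6 lie below the Cre controls.

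Mylip encodes Idol, an LXR-induced ubiquitin ligase that marks lipoprotein receptors for degradation. It ran from -2.57 to -0.85 in Cre control and from -2.21 to -1.86 in BRAFV600E, all within the Cre control range. Its log2 fold change was -0.35 (95% interval -0.92 to 0.21, limma adjusted p = 0.389), with an SD of 0.66 among Cre controls and 0.13 among BRAFV600E arrays. With MEKi it stood at -0.60, -0.38, -0.98 and -1.01 and with Vehicle at -0.45, -2.23, -1.20 and -0.75. Vehicle 2 was the lowest, and the log2 fold change was 0.42 (95% interval -0.43 to 1.27, limma adjusted p = 0.652). Without Vehicle 2 it was 0.06 (SE 0.24, limma adjusted p = 0.928).

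The wider pathway was read from gene lists of related function. Of 12 other LXR targets 2 were called lower in BRAFV600E and 0 higher, with a median of -0.03 and 6 values positive. The largest value was that of Scd1, 1.57 (SE 0.91, limma adjusted p = 0.265), with an SD of 2.29 among the Cre controls. The 2 called genes were Pltp, the phospholipid transfer protein, at -0.85 (SE 0.19, limma adjusted p = 0.0160) and Mlxipl, the carbohydrate-responsive factor ChREBP, at -0.50 (SE 0.15, limma adjusted p = 0.0488). Under MEKi Pltp and Mlxipl stood at 0.39 and 0.38 and 0 of the 12 were called, Fasn (fatty acid synthase) having the largest value, -0.66. Srebf1, the lipogenic factor that LXR induces, stood at 0.34 in BRAFV600E and -0.40 under MEKi, neither called.

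Of 10 LXR partners and coregulators 1 was called lower, the retinoid X receptor gene Rxrg at -1.46 (SE 0.45, limma adjusted p = 0.0496), and 0 higher. Under MEKi it stood at 0.95 (limma adjusted p = 0.210) and 0 were called. Rxrg was well above background on 3 of 6 BRAFV600E arrays against 6 of 6 Cre controls, and on 4 of 4 MEKi arrays against 1 of 4 Vehicle arrays. The group where Rxrg was high thus met the filter by itself in each comparison, and the dim values have little precision. The main intestinal partner Rxra stood at -0.17 and -0.01. Among 8 enzymes that make or modify oxysterols 0 were called in either comparison. The largest values there in BRAFV600E were those of Cyp7b1 and Cyp39a1, both oxysterol hydroxylases, at -0.56 and -0.50, and under MEKi that of Cyp39a1 at 0.63. Of 18 other ABCA and ABCG transporters 13 were tested in BRAFV600E and 14 under MEKi, and 0 were called in either. Abcg2, the urate and drug exporter, had the largest value in BRAFV600E, 0.76 (SE 0.62).

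Of 15 genes of sterol uptake, transfer and ester hydrolysis 1 was called higher and 1 lower in BRAFV600E, with a median of 0.20. The lysosomal sterol carrier Npc2 was at 0.49 (SE 0.13, limma adjusted p = 0.0331). Gramd1a, which carries sterol from the plasma membrane to the endoplasmic reticulum, was at -0.87 (SE 0.18, limma adjusted p = 0.00984). Under MEKi 0 of the 15 were called, with a median of -0.17. The largest values there were those of Cel, a lipase made by the pancreas, at -2.31 (SE 1.92), with a Vehicle SD of 4.47, and of the lysosomal ester hydrolase Lipa at -0.97 (SE 0.33). Of 9 apolipoprotein and lipoprotein assembly genes, Apoc3, which slows triglyceride clearance, was called lower in BRAFV600E (-1.41, SE 0.35) and higher under MEKi (1.34, SE 0.27). It was the only call of that list in each.

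Of 13 SREBP2 targets of cholesterol synthesis 11 were called higher in BRAFV600E, with a median of 1.13, and 6 lower under MEKi, with a median of -1.06. Lss (lanosterol synthase) rose by 1.42 and fell by 1.85 on the log2 scale, and Fdps (farnesyl diphosphate synthase) rose by 1.57 and fell by 1.19. Of 12 genes that report MAPK output 9 were called higher in BRAFV600E and 6 lower under MEKi, Etv4 (an ETS factor) at 2.50 and -2.95 and Spry4 (a feedback inhibitor) at 2.19 and -2.34. Set beside these, the values of Abca1 were -2.49 and 0.96, of the opposite sign in each comparison, with only the first called.

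**Figure D5:**
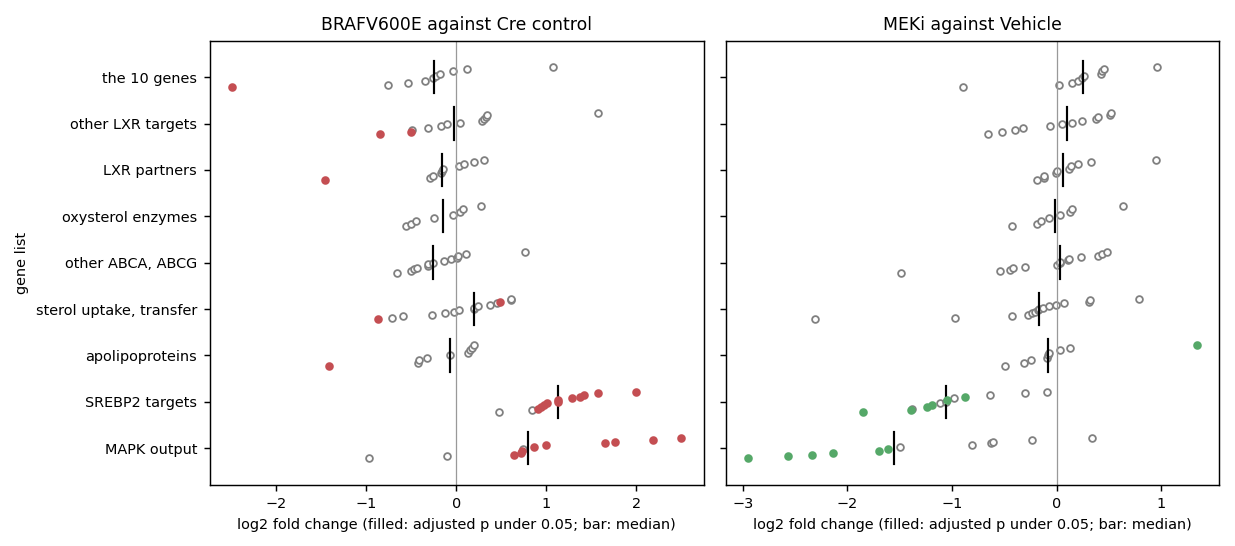
Log2 fold change (horizontal axes) of every tested gene in the 10 genes and in each related list (vertical axis), for BRAFV600E against Cre control on the left and MEKi against Vehicle on the right, filled where the adjusted p was under 0.05, with the median as a bar. All 13 SREBP2 targets lie to the right on the left panel and to the left on the right panel, as do 10 and 11 of the 12 MAPK output genes, and Abca1 is the only filled point among the 10 genes.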

How the data were processed

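Arrays were 1-colour Agilent SurePrint G3 Mouse 8x60K arrays. Per the file headers, the authors scanned them and ran Agilent Feature Extraction (version 10.5.1.1), which subtracted background, corrected spatial trends and wrote a linear processed intensity per spot with other marks (well above background, saturated, outlier). The deposited intensity was not normalized between arrays, and the deposited series matrix held the same values, within 0.5% for every spot. The authors' marks were used as filters.

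Control and outlier spots were left out, copies of a probe were averaged, and log2 intensity minus each array's 75th percentile was taken. Probes were named through RefSeq (GRCm38.p6, names only; 12271 unnamed). The probe with the highest mean over 20 arrays stood for a gene, and every probe of the 10 genes is also described. Genes well above background on at least 50% of a comparison's arrays were tested within each comparison by a linear model with moderated variance and no covariates (lmFit and eBayes of limma 3.58.1, in R 4.3.3). Every adjusted p of a gene is limma's, by Benjamini-Hochberg over all genes or probes tested. The fit was tested on simulated data. Probe coordinates are mm9, from the files. Promoters came from RefSeq.

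The 10 genes, the lists and the tests were chosen with earlier results of these data known. Named genes were all 10, and of each related list up to 4 called genes with the largest change in a comparison, or up to 2 where none was called. Some genes of the uptake list are not reported here. Rxra, Srebf1 and Scd1 were added after their values were seen, as were the macrophage and enterocyte genes named. Groups came from the labels, except that a treatment text shared by all 20 arrays, on a statin in female mice, fits no group and was not used. Each array is from a separate mouse, as the study states. Replicate numbers only name arrays. Alternatives were background correction, scaling, the dim filter, probe choice, array weights, a Y-linked covariate, slide, and leaving out arrays. Lists not shown in the report were markers of T and B lymphoid, smooth muscle, fibroblast, endothelial, Paneth, goblet, stem, pancreatic and proximal and distal gut cells, whose counts called higher and lower in BRAFV600E were, in that order, 0 and 3, 0 and 1, 2 and 0, 0 and 0, 0 and 0, 0 and 3, 0 and 2, 0 and 2, 1 and 0, 1 and 1, and 0 and 1. Under MEKi 1 proximal gut gene and 1 stem cell gene were called higher and no other. The number of arrays limits the precision.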

Additional observations from a re-analysis of the deposited data

Results flagged for a closer look

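Of 40 sets of values, 10 genes in 4 groups, 2 held an array whose gap to its nearest neighbour took up an unusually large share of the group's range. Chance alone gives this in about 1 in 20 groups. Scarb1 was at 3.31 on Vehicle 2, with the next Vehicle array at -0.23, the gap being 0.882 of the range of the 4 arrays. Abcg8 was at 2.66 on Cre control 1, with the next Cre control at 3.32 and a gap of 0.715 of the range of the 6 arrays.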

How the results depend on the processing

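In BRAFV600E against Cre control Abca1 was called under all 26 alternatives, its log2 fold change running from -3.44 (its dimmer probe, well above background on 1 of 6 BRAFV600E arrays) to -1.68 and its limma adjusted p from 0.000232 to 0.0380. The setting behind -3.44 took each gene's probe with the smallest p, which favours a call. The slide block and the shared slide gave the same value, so the 26 are not all separate checks. The count of called genes among the 10 stayed at 1 except under 4 settings. It was 2 with quantile normalization, where Nr1h3 joined (-0.83, limma adjusted p = 0.0462). It was also 2 with the slide as a block and 2 within the shared slide, where Nr1h3 joined again. The change in those settings rests on BRAFV600E 1 and 2 alone. The count was 3 without scaling between arrays. In that last setting the median of all genes shifted to 0.79, and Scarb1 (1.89, limma adjusted p = 0.00881) and Abcg1 (0.93, limma adjusted p = 0.0497) were called higher. The cause was not tested. Leaving out each array in turn gave a lowest and highest count of 1 and 1. In MEKi against Vehicle the count was 0 under all 18 alternatives, 0 and 0 when arrays were left out, and the value of Abca1 ran from 0.52 with array weights to 1.47 on its dimmer probe.

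In BRAFV600E the sign of Abca1 held under every alternative and that of Scarb1 in all but its dimmer probe (-0.01). Those of the other 8 genes, none called in the main test, turned under at least 1 alternative, 7 of them without scaling. Over all genes the calls numbered 2372 in BRAFV600E and 29 (spike-in slope) to 9337 (no scaling) under the alternatives, and 380 under MEKi, with 53 (Y-linked covariate) to 1135 (array weights). No paired analysis was possible because replicate numbers only name the arrays. Alternatives chosen after seeing the data were the arrays with a spike-in slope of 0.9 to 1.2 (3 Cre control arrays and BRAFV600E 1 and 2, Abca1 at -3.39) and those without raised Pdx1. Only 4 arrays per group limit what the inhibitor comparison can show.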
